A study of Homo sapiens with 4 samples.

Results

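Simple epithelia hold their shape with keratin filaments and seal themselves with tight junctions, and 10 genes of these structures were followed in A549 cells after knockdown of CEBPB. The members were 5 keratin genes (KRT7, KRT8, KRT18, KRT19 and KRT80), 2 claudin genes (CLDN1 and CLDN2), occludin (OCLN) and the scaffold genes TJP1 and TJP3, taken by symbol from a table of 57820 genes. All 10 were found once each, and all 10 were among the 14068 genes tested, whose mean over the libraries was 1 FPKM or more. FPKM counts fragments per kilobase of a transcript, scaled by depth, so levels of different genes can be compared per length. A549, the established human cell line used throughout, comes from a lung adenocarcinoma, and NRF2 is activated in it according to the series. The knockdown libraries were 1 of cells transfected with CEBPB siRNA-1 and 1 of cells transfected with CEBPB siRNA-2, and they were set against 2 libraries of cells that received control siRNA. Every group had fresh medium 24 h after transfection and was harvested 24 h later.

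A keratin filament is built from heteropolymers of a type I and a type II keratin, so each type needs the other. KRT8 (type II) and KRT18 (type I) form the basic pair of simple epithelia, and KRT7 (type II) and KRT19 (type I) add to it in glandular and ductal epithelium. KRT80 is a type II keratin of epithelial cells that is found near desmosomes and in the cytoplasm. In the tight junction, claudins and occludin are membrane proteins whose strands set paracellular permeability. CLDN1 is known as a sealing claudin and CLDN2 as a claudin that forms a paracellular channel for cations and water. TJP1 and TJP3 encode the PDZ scaffold proteins ZO-1 and ZO-3, which bind claudin tails and link them to actin.

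The knockdown libraries had 12.9 (siRNA-1) and 10.97 (siRNA-2) FPKM of CEBPB (ENSG00000172216.4), against 78.7 and 80.9 FPKM in the controls, a log2 change of -2.65 ± 0.17 (SE, n = 2 libraries per group, limma adjusted p = 0.0167). The libraries summed to between 494066 and 528606 FPKM, with depths of 0.966 to 1.02 relative to control 1. The authors' mean normalized counts sum to 8341083 per library. Mitochondrially encoded genes held 16.9% and 14.4% of FPKM on knockdown and 17.5% and 18.2% in the controls, and whether this has a part in the results was not tested. Of the epithelial markers, EPCAM was low, at 1.77 and 1.03 FPKM in the knockdown libraries and 1.92 and 3.52 in the controls, while CDH1 was at 22.8 and 14.0 against 20.2 and 32.1 FPKM. KRT14, KRT17 and DSG3 of 6 basal and squamous markers, PTPRC and CD3E of 5 leukocyte markers and all 3 endothelial markers in the table were listed at 0 in every library. The summed level of the leukocyte markers was 19.0 and 5.42 FPKM in the knockdown libraries and 8.16 and 10.3 in the controls, most of it CD68, whose FPKM is uncertain because its authors' mean count was only 0.754. That of the 7 fibroblast markers was 4.50 and 2.34 FPKM in the knockdown libraries and 0.798 and 0.684 in the controls, nearly all of it COL1A1, with COL1A2 listed at 0 throughout. COL1A1 rose in the authors' deposited table (log2 change 1.88, adjusted p = 0.00621). The 7 alveolar and airway markers summed to 1.0 and 2.32 FPKM on knockdown and 3.30 and 2.34 in the controls, with SFTPA1, SFTPB, NKX2-1 and SCGB1A1 listed at 0. The part of other cells in the results below was not tested, and in bulk RNA fewer cells of a type and less RNA per cell cannot be told apart.

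The 10 genes split by direction, 6 higher and 4 lower on knockdown. KRT7, KRT19, KRT80, CLDN1, OCLN and TJP1 were higher in both siRNA libraries than in either control, and KRT8, KRT18, CLDN2 and TJP3 were lower in both. Among all genes tested, 44.5% had groups that did not overlap, 23.5% higher and 21% lower, so such a split is common in these libraries. By the adjusted p of the authors' deposited table (threshold 0.05), KRT80 rose and KRT18, CLDN2 and TJP3 fell. That is 4 of the 10, beside 4.14% of all genes with an adjusted p there. Of these, 1 went upward beside 2.71%, and 3 downward beside 1.42%. The 10 were chosen with earlier results of these data known, so the shares are not an even comparison. In limma on log2(FPKM + 1), 0 of the 10 passed after Benjamini-Hochberg adjustment over all genes, where 0.235% of all genes passed. All 10 had an unadjusted limma p below 0.05, as had 12.2% of all genes. The error in limma takes in both the gap between the siRNA libraries and the gap between the controls. In a fit with the siRNAs as separate groups, whose spread comes from the controls alone, 8 members passed (all but KRT8 and KRT19), beside 6.9% of all genes. The same 8 passed without the siRNA-2 library, beside 13.2% of all genes, and 0 passed without the siRNA-1 library, beside 0.999%.

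**Figure D1:**
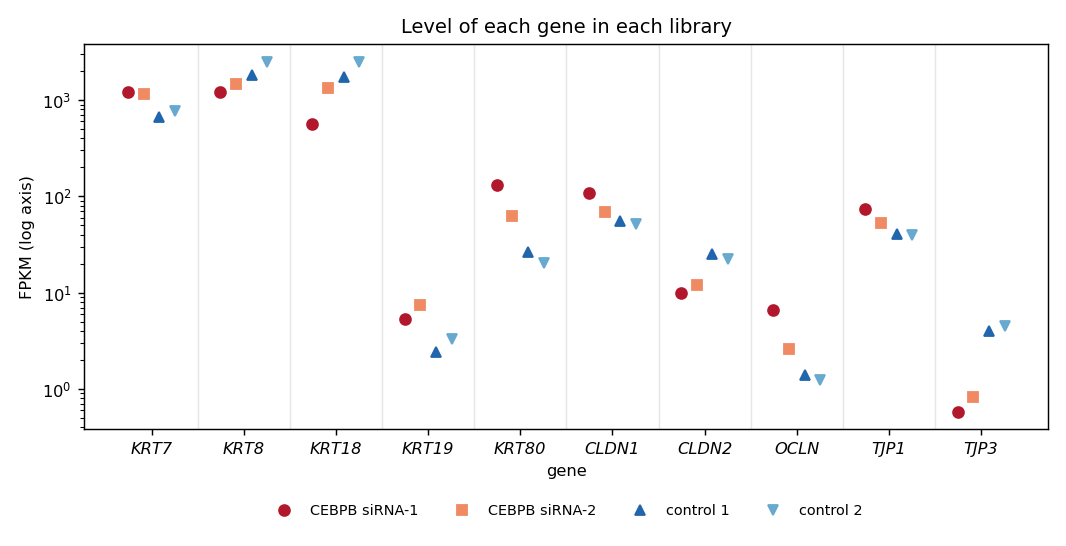
FPKM (log axis) of the 10 genes, with a point for each library; circles and squares are CEBPB siRNA-1 and siRNA-2, triangles the controls. KRT8 and KRT18 are the highest of the 10 in both controls, TJP3 lies below 1 FPKM in both knockdown libraries, and no gene's knockdown points overlap its control points.

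KRT8 and KRT18 were the most abundant members in the controls, at ranks 24 and 25 of all genes in control 1 and 21 and 22 in control 2; in the siRNA-1 library KRT7 stood above KRT18, at rank 37 against rank 90. KRT18 (ENSG00000111057.6, chromosome 12) was at 568 FPKM with siRNA-1 and 1351 with siRNA-2, against 1740 and 2502 FPKM in the controls. Both knockdown libraries were below both controls, but siRNA-2 lay much nearer to control 1 than siRNA-1 did, and the controls themselves differed 1.44-fold. KRT18 fell in the authors' deposited table (log2 change -1.21, adjusted p = 0.0317). In limma the change was -1.25 ± 0.43 (SE) with an adjusted p of 0.339.

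KRT8 (ENSG00000170421.7, chromosome 12), the partner of KRT18, was at 1226 and 1467 FPKM with siRNA-1 and siRNA-2, against 1835 and 2517 FPKM in the controls. The knockdown libraries were again below the controls, at 0.619 of the control mean for KRT8 and 0.453 for KRT18. The log2 change of KRT8 was -0.68 ± 0.22 (SE) in limma (adjusted p = 0.310), and the authors' deposited table has -0.71 with an adjusted p of 0.0868, so it passed in neither. The FPKM ratio of KRT8 to KRT18 was 2.16 in the siRNA-1 library and 1.09 in the siRNA-2 library, against 1.05 and 1.01 in the controls. The genes were thus nearly level in every library but that of siRNA-1.

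Processed copies of both genes are common in the genome, and reads can be shared with them. The table lists 50 KRT8 pseudogenes and 68 KRT18 pseudogenes. The KRT8 copies held 13.4% and 12.4% of the summed KRT8 signal in the knockdown libraries and 12.6% and 12.8% in the controls. For the KRT18 copies the shares were 1.44% and 1.59% in the knockdown libraries and 1.46% and 1.45% in the controls. With the copies added, KRT8 was at 1415 and 1675 FPKM against 2100 and 2886, and KRT18 at 577 and 1373 FPKM against 1766 and 2538. The KRT8 to KRT18 ratio was then 2.45 and 1.22 on knockdown, against 1.19 and 1.14. KRT8 and KRT18 also overlap on opposite strands in GENCODE 29; the libraries were strand-specific, but whether the counting used strand is not given in the sources used here.

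KRT7 (ENSG00000135480.10, chromosome 12), a type II keratin widely used to mark lung adenocarcinoma, was at 1200 and 1162 FPKM with siRNA-1 and siRNA-2, against 671 and 777 FPKM in the controls. The knockdown libraries were close together, within 1.03-fold, and 1.63 times the control mean. Its log2 change was 0.71 ± 0.16 (SE) in limma with an adjusted p of 0.186. In the authors' deposited table it was 0.67 with an adjusted p of 0.0712. KRT7 thus passed in neither. In GENCODE 29 it overlaps KRT86 and an antisense gene, so its reads are uncertain to that extent. KRT7-AS is not listed in the authors' deposited table, where the mean count was 24.9 for KRT86 and 10817 for KRT7.

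KRT80 (ENSG00000167767.9, chromosome 12) had the largest change of the 10 on the log2(FPKM + 1) scale, while by the ratio of mean FPKM and in the authors' deposited table TJP3 differed more. It was at 132 FPKM with siRNA-1 and 62.2 with siRNA-2, against 26.5 and 20.4 FPKM in the controls, 5.61 and 2.65 times the control mean. The groups did not overlap, and the siRNA libraries differed 2.12-fold from each other. KRT80 rose in the authors' deposited table (log2 change 2.05, adjusted p = 1.15e-06). Limma gave 1.92 ± 0.37 (SE) with an adjusted p of 0.148. By level, KRT80 stood at rank 478 of all genes with siRNA-1 and 1296 with siRNA-2, against 3235 and 4019 in the controls.

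KRT19 (ENSG00000171345.9, chromosome 17), the other type I keratin, was a minor transcript in every library. It was at 5.32 and 7.38 FPKM on knockdown, against 2.41 and 3.28 FPKM in the controls, and its authors' mean count was 56.6. Its log2 change was 0.93 ± 0.25 (SE) in limma (adjusted p = 0.248), and 1.24 in the authors' deposited table (adjusted p = 0.171). The groups did not overlap, but it passed in neither table.

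Summed over the 55 keratin genes in the table, the level was 3455 and 4966 FPKM in the knockdown libraries and 4966 and 6716 in the controls. KRT8 and KRT18 together made up 51.9% and 56.8% of that sum on knockdown, against 72.0% and 74.7% in the controls. KRT7 and KRT80 made up 38.5% and 24.6%, against 14.0% and 11.9%. The ratio of KRT7 to KRT18 was 2.11 in the siRNA-1 library and 0.860 in the siRNA-2 library, against 0.385 and 0.311. Type I keratins summed to 588 and 1380 FPKM against 1766 and 2533, whereas type II keratins summed to 2867 and 3586 FPKM against 3200 and 4184, ranges that overlap. The type II to type I ratio was therefore 4.88 and 2.60 on knockdown, against 1.81 and 1.65 in the controls. No test was run on these shares and ratios; an exact permutation test of 2 libraries against 2 could not go below a two-sided p of 0.333.

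**Figure D2:**
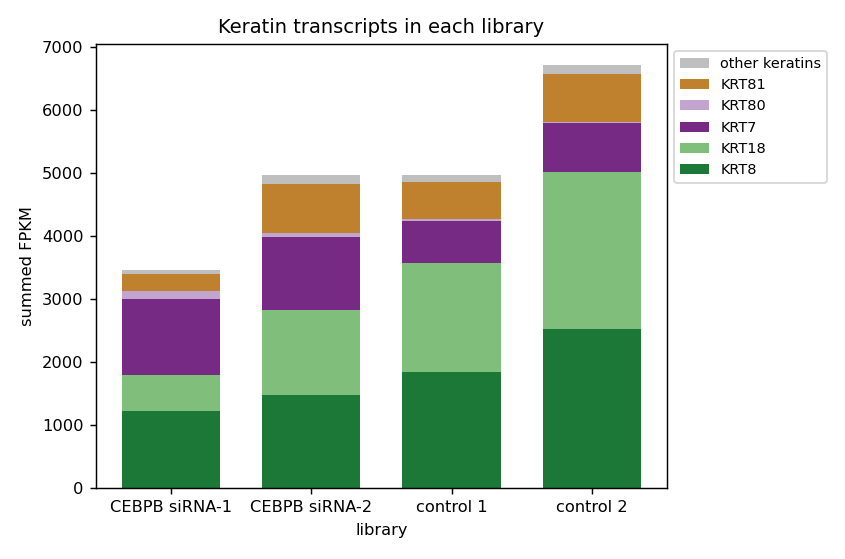
Summed FPKM of the keratin genes in each library, stacked by gene, knockdown libraries on the left. KRT8 and KRT18 (greens) fill 51.9% and 56.8% of the knockdown bars and 72.0% and 74.7% of the control bars, and KRT7 is the dark purple block in each.

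Of 50 other keratin genes, 37 were listed at 0 in all libraries and 6 had a mean of at least 1 FPKM. Of these 6, 0 passed in limma, and 0 of 7 passed in the authors' deposited table. The median log2 change of the 6 was -0.57, beside 0.001 over all genes tested. Of the 6, 3 were lower without overlap, beside 21% of all genes. The groups of the other 3, the close paralogs KRT81, KRT83 and KRT86, overlapped. KRT10, a type I keratin of suprabasal epidermis, was at 12.1 and 17.7 FPKM on knockdown, against 19.9 and 22.4 in the controls. The chromosome 12 cluster holds 27 of the keratin genes, KRT18 among them, and 8 of the 27 had a mean of at least 1 FPKM. In RefSeq order KRT80 and KRT7 stand first and second in that cluster, and KRT8 and KRT18 stand last. KRT86, KRT81 and KRT83, next to KRT7, had log2 changes of -0.47, -0.53 and -0.61 with overlapping groups. In the same order they were at 36.3, 268 and 3.82 FPKM with siRNA-1 and at 97.8, 784 and 12.1 with siRNA-2. Control 1 had 72.6, 582 and 10.3 FPKM and control 2 had 95.7, 759 and 12.2, so only siRNA-1 lay clearly below the controls. In the authors' deposited table their log2 changes were 0.34, -0.40 and -0.62, and none passed. Whether position in the cluster has a part in the changes was not tested.

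The claudins also lay on opposite sides of the controls. CLDN2 (ENSG00000165376.6, chromosome X) was at 9.81 and 11.9 FPKM with siRNA-1 and siRNA-2, against 25.3 and 22.3 FPKM in the controls. The 2 knockdown values lay close together and well below the controls, at 0.412 and 0.50 of their mean. CLDN2 fell in the authors' deposited table (log2 change -1.15, adjusted p = 0.000551). In limma the change was -1.07 ± 0.19 (SE), with an adjusted p of 0.123. MORC4, which overlaps CLDN2 in GENCODE 29, was at 39.0 and 57.7 FPKM on knockdown and at 38.7 and 37.4 in the controls.

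CLDN1 (ENSG00000163347.5, chromosome 3) was at 109 and 68.7 FPKM on knockdown, against 55.4 and 51.2 FPKM in the controls. It was 2.05 times the control mean with siRNA-1 and 1.29 times with siRNA-2. Its log2 change of 0.69 ± 0.25 (SE) did not pass in limma (adjusted p = 0.356), and the value of 0.72 in the authors' deposited table did not pass either (adjusted p = 0.179). The CLDN1 to CLDN2 ratio was 11.1 and 5.77 on knockdown, against 2.19 and 2.30 in the controls. CLDN1 made up 73.6% and 65.7% of the summed level of 23 claudin genes on knockdown and 55.3% and 56.0% in the controls, while CLDN2 made up 6.60% and 11.4% against 25.2% and 24.4%. Both together held 80.2% and 77.1% of the sum on knockdown, against 80.5% and 80.3%.

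Of 21 other claudin genes in the table, 4 reached a mean of 1 FPKM and 0 of these passed in limma, as did 0 of 5 in the authors' deposited table. CLDN12, the most abundant of them, was at 14.8 and 11.4 FPKM on knockdown, against 10.3 and 7.44 in the controls (log2 change 0.52 ± 0.24 (SE), limma adjusted p = 0.469).

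OCLN (ENSG00000197822.6, chromosome 5), a membrane protein of the junction strands, was low in every library. It was at 6.68 FPKM with siRNA-1 and 2.62 with siRNA-2, against 1.38 and 1.25 FPKM in the controls, and the authors' mean count was 63.9. Its siRNA libraries differed 2.55-fold in FPKM. The log2 change was 1.19 ± 0.39 (SE) in limma (adjusted p = 0.318) and 1.34 in the authors' deposited table (adjusted p = 0.111), past the threshold in neither.

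TJP1 (ENSG00000104067.12, chromosome 15) was at 73.3 and 52.5 FPKM on knockdown, against 40.9 and 39.7 FPKM in the controls. The controls were within 1.03-fold of each other and below both siRNA libraries. The log2 change of 0.61 ± 0.21 (SE) did not pass in limma (adjusted p = 0.329), nor did that of 0.59 in the authors' deposited table (adjusted p = 0.280).

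TJP3 (ENSG00000105289.10, chromosome 19) lay below the controls. It was at 0.578 and 0.820 FPKM with siRNA-1 and siRNA-2, against 3.95 and 4.51 FPKM in the controls, so that the knockdown mean was 6.05-fold lower. TJP3 fell in the authors' deposited table (log2 change -2.29, adjusted p = 0.000119), on a mean count of 69.0. Limma gave -1.62 ± 0.23 (SE), with an adjusted p of 0.0990, the smallest of the 10. The size depends on the pseudocount for so low a gene, and it was -2.45 with a pseudocount of 0.1 and -0.70 with 5. The TJP1 to TJP3 ratio was 127 and 64.0 on knockdown, against 10.3 and 8.80 in the controls.

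**Figure D3:**
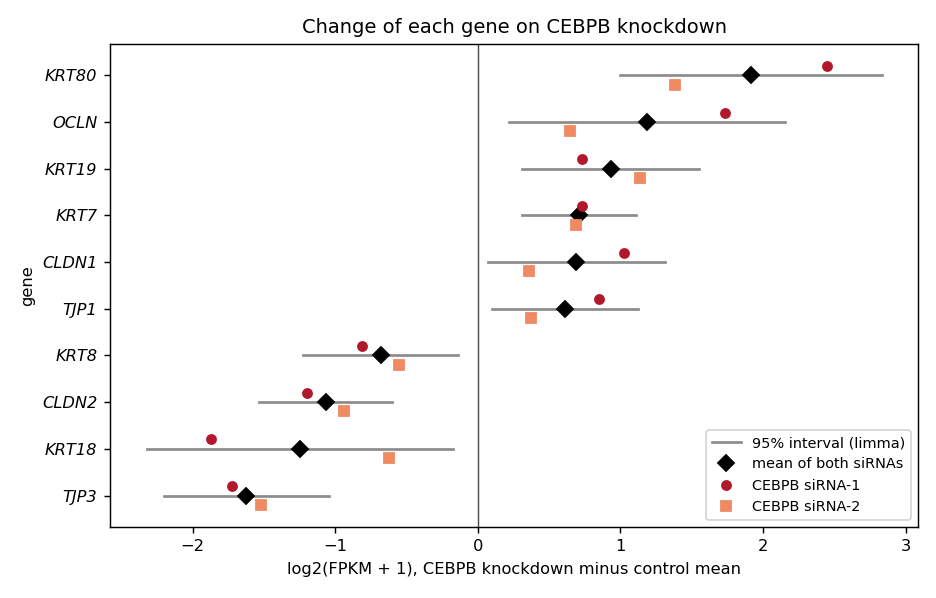
Change of each gene on the log2(FPKM + 1) scale, knockdown minus the control mean; circles are CEBPB siRNA-1, squares siRNA-2, diamonds their mean and lines the 95% interval from limma. KRT80 has the highest mean change (1.92) and TJP3 the lowest (-1.62), and each gene's siRNA points lie on the same side of 0.

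For each of the 10 genes both siRNA libraries lay on the same side of the controls, with changes of different size. Both are set against the same controls, so their values are given side by side. On the log2(FPKM + 1) scale the change of KRT18 was -1.87 for siRNA-1 and -0.63 for siRNA-2. In the same order it was 2.45 and 1.38 for KRT80, 1.73 and 0.64 for OCLN, and 1.02 and 0.36 for CLDN1. For TJP3 the values were -1.73 and -1.52, for CLDN2 -1.20 and -0.94, and for KRT7 0.73 and 0.69. The siRNA-1 value was the larger for 9 of the 10 genes (all but KRT19, at 0.73 and 1.13) and for 64.6% of all genes tested. The median size over the 10 genes was 1.11 for siRNA-1 and 0.66 for siRNA-2, beside 0.31 and 0.20 over all genes. Because the 10 were chosen with earlier results of these data known, neither comparison with all genes is an even one.

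None of the 10 differed between the siRNAs past the threshold in limma, where 0.441% of all genes did. An unadjusted limma p below 0.05 was seen for 5 of the 10, and for 3156 of the 14068 genes tested. For KRT18 the siRNA-1 minus siRNA-2 difference was -1.25 (95% interval -1.99 to -0.50, limma adjusted p = 0.104). For KRT80 it was 1.07 (0.50 to 1.64, adjusted p = 0.0910) and for OCLN 1.09 (0.43 to 1.74, adjusted p = 0.105). The difference was 0.05 for KRT7 (-0.43 to 0.52), -0.21 for TJP3 (-0.89 to 0.48) and -0.26 for CLDN2 (-0.76 to 0.24), intervals that include 0 and reach sizes of about 0.5 to 0.9. The intervals take the spread of a siRNA library to be that of the controls.

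Promoter windows were available from RefSeq (GRCh38.p14) for 6 of the 10 genes, 12 windows in all, each from 250 bases before to 50 bases after an annotated start. The windows of CLDN2 and TJP3 are shown because these were the junction genes that fell in the authors' deposited table, and that of KRT8 because it was the only window with the C/EBP letters. Capitals mark the motifs found, and each sequence is given 5′ to 3′ on the gene's strand.
CLDN2, chrX:106899914-106900213, plus strand: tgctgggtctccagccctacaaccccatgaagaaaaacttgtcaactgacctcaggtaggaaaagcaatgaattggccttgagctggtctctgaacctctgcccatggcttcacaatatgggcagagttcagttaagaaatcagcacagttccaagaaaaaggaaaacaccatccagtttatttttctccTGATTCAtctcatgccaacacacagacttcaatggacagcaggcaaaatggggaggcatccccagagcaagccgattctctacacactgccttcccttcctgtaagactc
CLDN2, chrX:106918110-106918409, plus strand: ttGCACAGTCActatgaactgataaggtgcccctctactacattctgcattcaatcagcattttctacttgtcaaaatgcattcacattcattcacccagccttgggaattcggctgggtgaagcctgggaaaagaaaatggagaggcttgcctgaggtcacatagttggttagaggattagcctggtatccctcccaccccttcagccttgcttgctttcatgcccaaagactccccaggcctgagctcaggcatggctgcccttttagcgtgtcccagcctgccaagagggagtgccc
TJP3, chr19:3708134-3708433, plus strand: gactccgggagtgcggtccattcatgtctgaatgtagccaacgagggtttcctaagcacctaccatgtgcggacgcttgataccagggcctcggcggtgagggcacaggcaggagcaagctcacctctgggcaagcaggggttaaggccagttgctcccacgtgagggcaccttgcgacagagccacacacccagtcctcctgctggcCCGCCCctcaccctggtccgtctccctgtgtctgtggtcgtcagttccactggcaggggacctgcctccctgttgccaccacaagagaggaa
TJP3, chr19:3721487-3721786, plus strand: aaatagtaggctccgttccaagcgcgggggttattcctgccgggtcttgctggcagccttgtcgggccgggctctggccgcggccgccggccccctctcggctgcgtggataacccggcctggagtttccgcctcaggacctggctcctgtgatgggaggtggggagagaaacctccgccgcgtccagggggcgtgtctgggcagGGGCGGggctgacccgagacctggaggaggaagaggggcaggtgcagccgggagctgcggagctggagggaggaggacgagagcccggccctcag
KRT8, chr12:52926420-52926719, minus strand: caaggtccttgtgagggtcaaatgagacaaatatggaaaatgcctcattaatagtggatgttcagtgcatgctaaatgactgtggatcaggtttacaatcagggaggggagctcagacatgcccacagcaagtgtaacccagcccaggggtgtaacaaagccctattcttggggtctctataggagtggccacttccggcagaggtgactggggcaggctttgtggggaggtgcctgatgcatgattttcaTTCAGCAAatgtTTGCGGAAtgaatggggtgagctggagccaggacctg

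The letters searched on both strands were TTGCNNAA for C/EBP factors, TGACNNNGC for the antioxidant response element bound by NRF2, TGANTCA for AP-1, TATAAA for the TATA box and GGGCGG for the GC box. The AP-1 and antioxidant letters can overlap, but no matches overlapped in these windows. TTGCNNAA occurred in 1 of the 12 windows, the only one available for KRT8, and in 10.5% of 35116 windows of the same length. The KRT8 window had 2 matches, both within the 50 bases after the start. Whether that annotated start is the main KRT8 start in A549 cells was not tested. TGACNNNGC occurred in 2 of the 12, the downstream CLDN2 start and a start of OCLN, and in 13.3% of all. TGANTCA occurred in 1 (the upstream CLDN2 start, 60 bases before it) against 7.71%, TATAAA in 0 against 11.5%, and GGGCGG in 7 against 45.0%. Both TJP3 windows held a GC box, and neither CLDN2 window did. The CLDN2 windows were 47.3% and 51.3% G + C and the TJP3 windows 62.3% and 70.3%, around a median of 58.7% over all windows. A match of letters is a description of the sequence and not a site of binding.

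Other junction and filament genes were described by lists. Of 29 tested tight junction genes beyond the members, 0 passed in limma. Of the 33 with an adjusted p in the authors' deposited table, MPP5 and PARD3 rose, beside 2.71% of all genes there, and none fell. MPP5, which encodes the polarity scaffold PALS1, was at 19.8 and 13.0 FPKM on knockdown, against 7.23 and 7.78 in the controls (log2 change 1.10 and adjusted p = 0.0117 in the authors' deposited table). PARD3, a polarity scaffold of the PAR complex, was at 59.9 and 48.2 FPKM, against 32.4 and 38.3 (0.70 and adjusted p = 0.0490 in the authors' deposited table). ARHGEF18, a RhoA exchange factor of apical junctions, was at 15.3 and 21.3 FPKM against 8.33 and 7.71, and MICALL2, which recycles occludin with RAB13, at 13.3 and 10.0 against 6.87 and 4.41; they passed in neither table. ARHGEF2, a junction-bound RhoA exchange factor, was at 22.5 and 19.1 FPKM against 35.4 and 31.0 and did not pass either. The list's median log2 change was 0.34, beside 0.001 over all genes, and 16 of the 29 were higher and 4 lower without overlap, beside 23.5% and 21% of all genes.

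Of 13 tested desmosome and plakin genes, 0 passed in limma and DST, which encodes the plakin dystonin, rose in the authors' deposited table (log2 change 0.9997, adjusted p = 0.0280). DST was at 23.0 and 18.2 FPKM on knockdown, against 13.7 and 8.97 in the controls. The desmosomal cadherin DSG2 was at 45.3 and 35.7 FPKM against 28.9 and 30.1, the plaque protein JUP at 53.8 and 81.9 against 92.7 and 91.1, and the cornified envelope plakin EVPL at 6.74 and 9.03 against 12.9 and 10.2. The list's median was 0.34. Of 13 adherens junction genes 0 passed in either table, with a median of 0.18. Nectin-2 (PVRL2) was at 58.8 and 60.4 FPKM against 43.0 and 37.4, vinculin (VCL) at 125 and 98.8 against 90.6 and 71.1, and ACTN1, an actin cross-linker, at 209 and 173 against 151 and 152.

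Among 9 other intermediate filament genes tested, 0 passed in limma, with a median of 0.39. NES, the filament protein of neural and other progenitors, was under the filter at 1.15 and 0.998 FPKM against 0.244 and 0.173, and it alone of 12 rose in the authors' deposited table (log2 change 2.32, adjusted p = 0.0101). VIM, the main filament of mesenchymal cells, was at 1054 FPKM with siRNA-1 and 523 with siRNA-2, against 355 and 403 in the controls (log2 change 0.98 and adjusted p = 0.0519 in the authors' deposited table). The VIM to KRT18 ratio was 1.85 and 0.387 on knockdown, against 0.204 and 0.161. LMNA, a nuclear lamina gene, was at 180 and 107 FPKM against 104 and 98.1, and NEFL, a neurofilament gene, at 12.6 and 6.06 against 3.71 and 4.26.

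Of 11 tested epithelial regulators and surface genes, 0 passed in limma. Of the 17 with an adjusted p in the authors' deposited table, KLF5 and HNF4A fell, beside 1.42% of all genes there, and none rose. KLF5, a zinc finger factor of proliferating epithelium, was at 13.6 and 21.6 FPKM on knockdown, against 39.0 and 47.7 in the controls (log2 change -1.34, adjusted p = 0.000246 in that table). HNF4A, a factor of liver and gut epithelium, was at 6.65 and 3.20 FPKM against 9.52 and 18.4 (-1.38, adjusted p = 0.00166). ELF3, an epithelial ETS factor, was at 39.0 and 45.8 FPKM against 63.2 and 65.1 and did not pass. The list's median was -0.20.

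**Figure D4:**
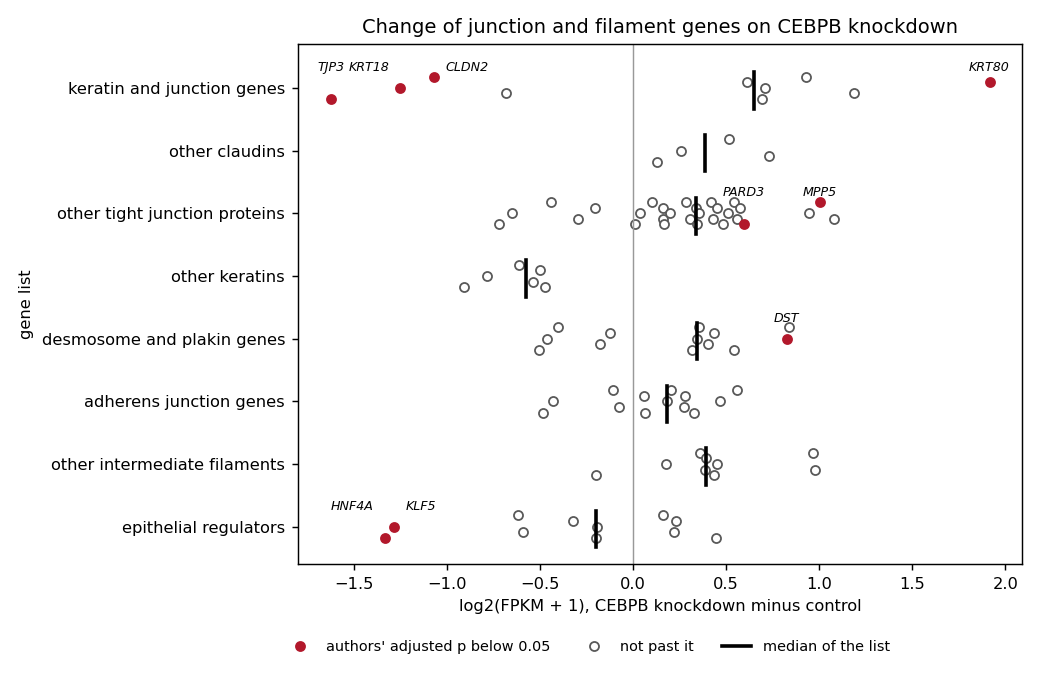
Log2(FPKM + 1) change, knockdown minus control, of each tested gene in 8 lists, with filled points for genes past an adjusted p of 0.05 in the authors' deposited table and a bar at each list's median. The 10 keratin and junction genes reach from -1.62 to 1.92, wider than any other list shown, and the median is above 0 in 6 of the 8 lists. The 10 genes and the lists were chosen with earlier results of these data known.

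The genes with the nearest profiles over the 4 libraries were found by the root mean square distance between centred log2(FPKM + 1) values, among the 9511 that averaged 5 FPKM or more. Of the members, 8 spanned over 1 on that scale. For TJP3 the nearest were HMOX1, heme oxygenase 1 (distance 0.027), and GPX2, a glutathione peroxidase (0.034). These distances depend on the pseudocount of 1, which compresses TJP3: its FPKM was 6.05-fold lower on knockdown, a larger fold than that of HMOX1, at 23.0 and 26.9 FPKM against 74.1 and 79.4, or of GPX2, at 79.3 and 86.0 against 245 and 277. For KRT18 they were SPDEF, an epithelial ETS factor (0.051), and PON3, a paraoxonase (0.132), for KRT80 KIF3C, a kinesin (0.070), and COL7A1, the collagen of anchoring fibrils (0.084). For CLDN1 they were IDS (0.007) and S100A4 (0.011), for CLDN2 SDSL (0.050) and GOSR1 (0.059), and for OCLN ADAMTS10 (0.043) and ARNTL2 (0.064). For KRT19 they were EEF1A2 (0.048) and GPRIN2 (0.093), and for KRT8 CCDC104 (0.044) and the pseudogene KRT8P33 (0.052), which may share KRT8 reads.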

How the data were processed

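Total RNA of 4 A549 libraries was sequenced as strand-specific 76-base single-end reads, per the labels. The submitters' processing notes list the genome build hg19 and, without saying what each was used for, HTSeq 0.13.5, STAR 2.7.0d, DESeq2 1.26.0 and StringTie 2.1.4. The deposited table gives a value per library with no unit in the file headers. It was taken as FPKM made by the authors, since the columns have StringTie's form and sum to unequal totals. Counts per library were not used here. Gene overlaps were read from GENCODE 29, which may differ from the annotation behind the deposited values. The same deposited table holds the authors' comparison: a signal column (the mean normalized count), a log2 fold change with its standard error, a score (the Wald statistic), and p-value and adjusted p-value columns, per the file headers. That fold change is knockdown over control, since its sign follows the FPKM values, and the comparison is quoted as the authors'.

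For the tests here, log2(FPKM + 1) of the 14068 genes averaging 1 FPKM or more was fitted in R 4.3.3 by limma 3.58.1 with a trend on intensity, no block, Benjamini-Hochberg adjustment over all of them and a threshold of 0.05. The scale understates the change of low genes. The siRNAs were compared in a 3-group fit. The design provided for a count test or, for normalized values, this one. The labels do not say whether the libraries of a group came from separate cultures, so the p-values measure only the spread between these libraries, which may be technical between the controls. The fit was checked on simulated data.

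Genes named were all members, CEBPB, list genes past either table's threshold, up to 3 more per list with the largest change (no overlap, mean of at least 5 FPKM), and the 2 nearest profiles; some list genes that met this rule are not reported here. CDH1, EPCAM and the overlapping genes were named outside this rule, as were the genes of the closing observations. The members and lists were chosen with earlier results of these data known. Alternatives covered the pseudocount, the filter, scaling, the trend, a replicate block, the 3-group fit and leaving out each library.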

Additional observations from a re-analysis of the deposited data

How the results depend on the processing

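The 10 genes kept their direction in all 137 values recomputed under 14 alternatives, 16 of which newly passed the threshold. These were the 8 members that passed in the 3-group fit and the same 8 without the siRNA-2 library; leaving out each library gave between 0 and 8 members. The 3-group fit called 538 genes higher and 433 lower, against 9 and 24 in the main limma fit; it leaves the spread between the siRNAs out of the error. Leaving out each library gave between 0 and 915 genes higher and between 0 and 940 lower. The counts of 0 came without control 1 (769 genes at an unadjusted limma p below 0.05) or without control 2 (686), the counts of 915 and 940 without siRNA-2, and those without siRNA-1 were 69 and 71; in each the lone library is assumed to vary like the other group. With no filter 0 genes were called higher and 0 lower (2438 at an unadjusted p below 0.05). With the replicate block 11 were higher, 14 lower and 0 of the 10 members passed; the labels do not say what the numbers mark, and deviations of same-numbered libraries correlated at 0.0754 across genes. Between the siRNAs limma called 16 genes higher and 46 lower. These counts were 0 and 1 with a pseudocount of 0.1 (3034 at an unadjusted p below 0.05), 909 and 1006 with no filter and 191 and 173 with median-of-ratios scaling, and none of the 30 recomputed member differences passed or reversed. KRT19, OCLN and TJP3 had no value with a minimum mean of 5 FPKM. The cause was not tested where none is given. Adding the keratin pseudogenes moved the keratin share and the KRT8 to KRT18 ratio by less than the spread between libraries. Depth limits KRT19, OCLN and TJP3 most, whose authors' mean counts were 56.6, 63.9 and 69.0.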

Other observations

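The hair-type keratins KRT81, KRT83 and KRT86 were lower with siRNA-1 than with siRNA-2, short of the threshold; all genes here were chosen after their values were seen. KRT81 was at 268 FPKM with siRNA-1 and 784 with siRNA-2, against 582 and 759 in the controls, and was after KRT8, KRT18 and KRT7 the most abundant keratin. KRT83 was at 3.82 and 12.1 FPKM against 10.3 and 12.2, and KRT86 at 36.3 and 97.8 against 72.6 and 95.7. In each case the siRNA-1 library was the lowest of the 4 and the siRNA-2 library lay within or within a few percent of the control range. The siRNA-1 minus siRNA-2 differences were -1.54 (95% interval -2.13 to -0.96), -1.45 (-2.03 to -0.86) and -1.41 (-2.0 to -0.82) on the log2(FPKM + 1) scale, with limma adjusted p-values of 0.0638, 0.0678 and 0.0716. The 3 genes are close paralogs, and KRT86 overlaps KRT81 in GENCODE 29. KRT86 has an authors' mean count of 24.9 beside 9678 for KRT81, so its FPKM is uncertain.

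The opposite pattern was seen in some junction genes outside the members. The desmosomal cadherin DSC2 was at 11.3 FPKM with siRNA-1 and 2.85 with siRNA-2, against 3.43 and 2.34 in the controls. The plakin PPL was at 4.18 and 0.961 FPKM against 1.36 and 1.03, and cingulin (CGN), a tight junction plaque protein, at 8.23 and 3.13 against 3.53 and 3.50. Their siRNA-1 minus siRNA-2 differences were 1.67, 1.40 and 1.16, with limma adjusted p-values of 0.0768, 0.0867 and 0.0882, so none passed. Other junction genes, such as the desmosome genes JUP and PKP2, went the other way. Their differences of -0.60 and -0.97 did not pass either.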
